A study of Arabidopsis thaliana with 48 samples.

Results

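A set of 207 Arabidopsis thaliana genes, of the 33323 in the count files, was lowered 4 h after a priming heat stress and stood above the untreated level 28 h after it in wild-type Col-0 seedlings. The members were chosen on Col-0 libraries alone. The CPM of each gene (its reads for each 1000000 reads that a library had on genes) was averaged over the 3 replicates of a group, and L was the log2 of (mean CPM + 1) after heat over (mean CPM + 1) in the non-treated control (NTC). A member had L below -0.8 at 4 h and above 0.6 at 28 h, and its lowest 28 h library exceeded its highest NTC library. Of all genes, 4832 passed the first condition, 2333 the second and 228 both, and the condition on libraries left 207. They comprised 203 protein-coding genes, 2 non-coding RNAs, 1 snoRNA and 1 pseudogene.

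The libraries came from whole seedlings of Col-0 and of the hsfa2, hsfa3-1 and hsfa2 hsfa3 double mutants, all in the Col-0 background. HSFA2 and HSFA3 are heat shock transcription factors, and the single mutants are referred to as hsfa2 and hsfa3. Seedlings aged 4 d received an acclimation treatment (ACC) of 1 h at 37 °C, 90 min at 23 °C and 45 min at 44 °C, and were collected 4, 28 or 52 h later, with 1 NTC group for each genotype. Each of the 16 groups had 3 biological replicates, which makes 48 libraries. Because a genotype had a single NTC group, the heat treatment and the age of the seedlings at harvest cannot be told apart in any comparison with NTC. In bulk seedlings, fewer cells of a type and less RNA per cell cannot be told apart either.

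The study addressed how these factors sustain transcription after heat, and the members show another course, a loss at 4 h that ends above the starting level a day later. Growing plants lower many growth and housekeeping transcripts during heat. Plastids depend on nuclear genes for their own transcription, RNA processing, protein import and protein quality control, and each cell cycle needs a pulse of replication transcripts, many of them under E2F transcription factors. Cell wall enzymes and receptor kinases act at the cell surface, where walls are remodelled and pathogens are sensed. Members of each of these classes were in the set.

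Libraries held 27739931 to 34058960 gene counts (median 33505334.5), so 3 counts, the floor used here, correspond to 0.0881 to 0.108 CPM. HSFA2 at 4 h was at 55.1 ± 2.97 CPM in hsfa2 hsfa3, 56.4 ± 13.4 in hsfa2 and 1102 ± 168 in hsfa3, against 1190 ± 122 in Col-0 (SD, n = 3 each). HSFA3 at 4 h was at 191 ± 5.17 CPM in hsfa2 hsfa3, 1178 ± 194 in hsfa2 and 152 ± 1.05 in hsfa3, against 864 ± 77.8 in Col-0, so the low libraries were those the labels give as mutant. Photosystem and light-harvesting genes, as seedlings require, took a summed 49580 to 86820 CPM in every library. A list of 24 seed storage protein and oleosin genes, markers of remaining seed tissue, summed to 1085 to 1325 CPM at 4 h, 984.7 to 1196 CPM at 28 h, 1182 to 1369 CPM at 52 h and 1108 to 1381 CPM in NTC, with 0 to 3 of its genes at 0 in a group. Its 28 h sum was the lowest of the 4 times in each genotype by the mean, and its part in the results was not tested.

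Upstream sequence is shown first for the 8 members with the motif TTTCCCGC, a form of E2F site chosen for printing after its share in the set was seen. Of the 203 protein-coding members, 8 (3.94%) had it on either strand within 250 bases upstream of the annotated gene start, against 165 of 26711 promoters of protein-coding genes (0.618%). Of those 8, MCM2 and MCM6 encode subunits of the replicative helicase, ICU2 the catalytic subunit of DNA polymerase alpha, ATIM a timeless family protein, FAS1 a subunit of the histone chaperone CAF-1 and ATSMC2 a condensin subunit, and AT3G23740 and AT3G56870 are annotated as uncharacterized. The last 80 bases before each gene start are printed 5′ to 3′ on the gene's strand from the RefSeq TAIR10.1 assembly, with the motif, or its reverse complement, in capitals.
MCM2, chr1:16970134-16970213, plus strand: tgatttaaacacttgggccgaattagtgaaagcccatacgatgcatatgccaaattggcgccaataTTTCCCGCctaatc
MCM6, chr5:18010668-18010747, minus strand: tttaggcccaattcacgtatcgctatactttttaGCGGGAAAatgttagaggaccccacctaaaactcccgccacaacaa
ICU2, chr5:26776873-26776952, plus strand: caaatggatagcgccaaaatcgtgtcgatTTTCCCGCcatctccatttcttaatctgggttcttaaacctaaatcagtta
ATIM, chr5:21463328-21463407, minus strand: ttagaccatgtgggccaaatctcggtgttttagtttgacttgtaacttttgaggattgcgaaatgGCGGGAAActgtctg
FAS1, chr1:24324092-24324171, minus strand: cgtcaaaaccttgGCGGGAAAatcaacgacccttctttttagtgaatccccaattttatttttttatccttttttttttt
ATSMC2, chr3:17486410-17486489, plus strand: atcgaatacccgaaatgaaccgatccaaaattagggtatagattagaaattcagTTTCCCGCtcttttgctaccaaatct
AT3G23740, chr3:8554840-8554919, minus strand: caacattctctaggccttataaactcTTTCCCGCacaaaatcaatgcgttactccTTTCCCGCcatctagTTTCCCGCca
AT3G56870, chr3:21052354-21052433, plus strand: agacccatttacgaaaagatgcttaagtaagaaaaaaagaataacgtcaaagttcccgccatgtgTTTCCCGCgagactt

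The motif began 10 to 67 bases before the gene start in these members, and AT3G23740 carried it at 3 places. The other form searched, TTTGCCGC, was in 0 member promoters and in 74 of all promoters (0.277%). Among the other motifs searched, the share in member promoters was close to that in all promoters for TGGGCC (15.8% against 13.9%) and TGGGCT (12.8% against 12.5%). In 2 role groups described below, put together with the values known, the shares were higher. TGGGCC was in 37% of 27 plastid promoters and 61.1% of 18 replication and division promoters, and TGGGCT in 25.9% and 44.4%. TTTCCCGC was in 0 and 6 of them. GAANNTTC, a core of the heat shock element, was in 7.88% of member promoters and 9.47% of all promoters. GATAAG was in 17.7% of member promoters and 12.2% of all promoters, GGATAA, which can overlap it, in 18.7% and 12.5%, and AAAATATCT, the evening element of clock-regulated genes, in 4.43% and 2.4%. ACCGAC, the core bound by DREB factors, was in 1.48% and 4.72%. AAACCCTA was in 3.45% of member promoters and 4.44% of all promoters, CACGTG in 4.93% and 6.58%, AACGG in 19.7% and 20.6%, TTGACC in 10.8% and 12.2%, TTGACT in 18.7% and 19.1%, and TGTCTC in 9.36% and 10.9%. All motifs were searched on both strands. These shares describe letters in a window and were not tested.

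In the Col-0 libraries that chose them, the members took a mean 1.08% of all gene counts in NTC, 0.457% at 4 h, 2.02% at 28 h and, at a time the rule did not use, 1.58% at 52 h. Single Col-0 libraries ran from 1.07% to 1.1% in NTC, from 0.431% to 0.481% at 4 h, from 1.87% to 2.28% at 28 h and from 1.49% to 1.63% at 52 h. The 4 times did not overlap. The mutant libraries, none of which entered the rule, followed the same order of times. In hsfa2 hsfa3 the mean share was 1.11% in NTC, 0.508% at 4 h, 1.64% at 28 h and 1.49% at 52 h, in hsfa2 it was 1.14%, 0.486%, 1.76% and 1.49% at the same times, and in hsfa3 it was 1.11%, 0.511%, 1.77% and 1.5%. Within each mutant, the heated libraries at 28 and 52 h were all above the NTC libraries and those at 4 h all below.

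**Figure D1:**
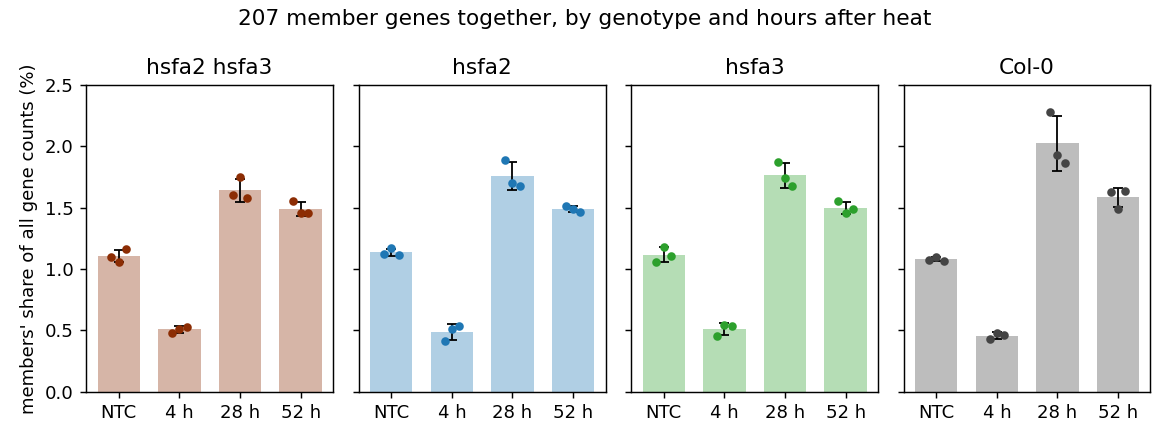
Share of all gene counts (%) taken by the 207 members in each library (points), with the group mean (bars) and SD (error bars, n = 3), for hsfa2 hsfa3, hsfa2, hsfa3 and Col-0 in NTC and at 4, 28 and 52 h. In every genotype the share is lowest at 4 h (0.414% to 0.543% over all libraries) and highest at 28 h by the mean.

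Over the members, the median L in Col-0 was -1.11 at 4 h and 0.77 at 28 h, both fixed by the choice of members, and 0.50 at 52 h. The lowest L at 4 h was -2.69 and the highest at 28 h 2.53. In the mutants, median L at 4 h was -1.13 in hsfa2 hsfa3, -1.19 in hsfa2 and -1.10 in hsfa3, and at 28 h it was 0.47, 0.53 and 0.58. All 207 members were below NTC by the mean at 4 h in every mutant, and 203, 195 and 203 were above it at 28 h. The 19046 genes with a mean of at least 1 CPM had medians of -0.19, -0.20 and -0.16 at 4 h and 0.05, -0.02 and 0.03 at 28 h in the same 3 mutants, so the median gene was also lower at 4 h on this scale. Scaling by the trimmed mean of M-values (TMM) brought the median of all genes at 4 h to between -0.05 and -0.06, and all fitted log2 fold changes below are on that scale.

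At the edges of the rule, AT5G52850, AT3G52390 and MCM3 were just inside at 28 h with L of 0.6003, 0.6004 and 0.6027, and RbcX1, AT1G26330 and AT1G54730 just outside with 0.5978, 0.5964 and 0.5963. At 4 h, AT2G06950, AT4G21705 and AT4G17610 were just inside (-0.8017, -0.8023 and -0.8025) and ARAD2, MLP168 and CHR38 just outside (-0.7977, -0.7952 and -0.7894). The number of members therefore depends on the thresholds, and also on the scaling: TMM-scaled CPM left 99 genes, of which 98 were among the 207.

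Whether the course recurs was tested in libraries that had no part in the rule. The fit used 39 libraries, the 36 of the mutants and the 3 of Col-0 at 52 h, over 21694 genes, with edgeR's quasi-likelihood test and Benjamini-Hochberg adjustment over all of them (a call is an adjusted p below 0.05). All 207 members passed the filter on low counts. At 4 h, 196 members were lower than NTC in hsfa2 hsfa3, 198 in hsfa2 and 202 in hsfa3, beside 35.6%, 35.3% and 35.8% of all genes tested. The median fitted log2 fold change of the members at 4 h was -1.14 in hsfa2 hsfa3, -1.18 in hsfa2 and -1.15 in hsfa3. No member was called higher at 4 h in any mutant.

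At 28 h, 106 members (51.2%) were higher than NTC in hsfa2 hsfa3, 117 (56.5%) in hsfa2 and 141 (68.1%) in hsfa3. The background was 10.6%, 10.4% and 12% of all genes. The median log2 fold change at 28 h was 0.48, 0.58 and 0.58, and no member was called lower. Both calls together, lower at 4 h and higher at 28 h, were met by 102 members in hsfa2 hsfa3, 115 in hsfa2 and 141 in hsfa3, against 2.26%, 2.81% and 3.02% of all genes. Of all genes lowered at 4 h, 6.35% in hsfa2 hsfa3, 7.96% in hsfa2 and 8.45% in hsfa3 were higher at 28 h, and of the members lowered at 4 h, 52.0%, 58.1% and 69.8%. In all 3 mutants both calls held for 83 members (272 genes of all tested, 1.25%), while 55 members met them in no mutant. These counts leaned on replicate 3: without it, the 28 h counts were 36, 44 and 58 and the joint counts 28, 42 and 52 in hsfa2 hsfa3, hsfa2 and hsfa3, and without replicate 2 those of hsfa2 hsfa3 were 60 and 49. Asking also for an absolute log2 fold change above 1 left 20, 20 and 22 members with both calls.

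At 52 h, 77 members were higher than NTC in hsfa2 hsfa3, 69 in hsfa2 and 67 in hsfa3 (background 5.96%, 6.45% and 4.78%), and no member was called lower. Of these, 63, 56 and 63 had also been called higher at 28 h. Among all genes called higher at 52 h (1292, 1399 and 1038), 702, 752 and 631 had also been called at 28 h. In all 3 mutants the call at 52 h held for 56 members, and 117 were not called in any. The same count over all genes was not made. The median log2 fold change at 52 h was 0.39, 0.32 and 0.35. Without replicate 3 the counts at 52 h were 14, 11 and 12.

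**Figure D2:**
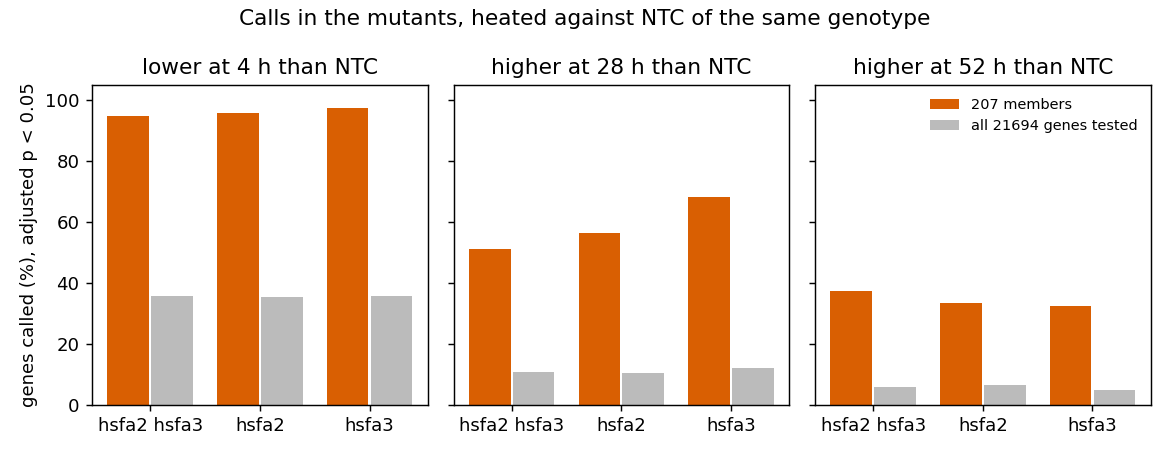
Percentage of the 207 members (orange) and of all 21694 genes tested (grey) called lower at 4 h, higher at 28 h and higher at 52 h than NTC of the same genotype, in hsfa2 hsfa3, hsfa2 and hsfa3 (edgeR, adjusted p < 0.05). The members' bars exceed the grey bars in all 9 pairs, with 51.2% to 68.1% against 10.4% to 12% at 28 h.

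The rule itself, applied to each mutant's own libraries, found 121 genes in hsfa2 hsfa3, 108 in hsfa2 and 121 in hsfa3 (0.363%, 0.324% and 0.363% of all genes). Of these, 58, 68 and 76 were members, which is 28.0%, 32.9% and 36.7% of the 207 and 47.9%, 63.0% and 62.8% of each mutant's list. The rule was met by 40 members in all 3 mutants, by 26 in 2, by 30 in 1 and by 111 in none. These joint counts were not made over all genes, so they have no background to be read against.

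The members' share of counts at 28 h was 1.64% in hsfa2 hsfa3, 1.76% in hsfa2 and 1.77% in hsfa3, against 2.02% in Col-0. The members were chosen on the Col-0 libraries at that time, so this difference carries no test. At 52 h, where Col-0 was independent of the rule, no member differed in level between a mutant and Col-0 (0 by edgeR and 0 by DESeq2), with 9 members at an unadjusted p below 0.05 for hsfa2 hsfa3, 4 for hsfa2 and 3 for hsfa3. Of all genes tested, 0.595%, 0.143% and 0.0738% differed, and 5.2%, 2.67% and 3.65% had an unadjusted p below 0.05 (edgeR). The median log2 difference over the members at 52 h was -0.06, -0.10 and -0.09. The log2 fold change at 28 h differed between mutants for 0 members in each of the 3 pairs by edgeR and by DESeq2, with 11 at an unadjusted p below 0.05 for hsfa2 hsfa3 against hsfa2, 3 for hsfa2 hsfa3 against hsfa3 and 4 for hsfa2 against hsfa3. Over all genes these comparisons called 0.00461%, 0.023% and 0%, with 2.03%, 1.65% and 1.22% at an unadjusted p below 0.05 (edgeR). A missed threshold does not show that the genotypes responded alike.

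By annotation, 87 members fell into 6 role groups put together after the members and their values had been seen. The groups are described by counts and medians, without a test. The remaining 120 members were left ungrouped. Of all genes tested, 35.6%, 35.3% and 35.8% were lower and 34.9%, 34.8% and 34.3% higher at 4 h in hsfa2 hsfa3, hsfa2 and hsfa3. At 28 h 10.6%, 10.4% and 12% were higher and 9.99%, 7.87% and 10.9% lower. At 52 h 5.96%, 6.45% and 4.78% were higher. These shares are the background for the counts of the groups and gene lists below.

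The plastid group had 27 members acting in plastid transcription, RNA processing, translation, protein import, protein quality control or pigment synthesis. At 4 h, 27 of 27 were lower than NTC in each mutant. At 28 h, 21 were higher in hsfa2 hsfa3, 26 in hsfa2 and 27 in hsfa3, with medians of 0.45, 0.60 and 0.61, while over all members the medians were 0.48, 0.58 and 0.58. At 52 h 6, 5 and 6 were higher and the medians were 0.26, 0.23 and 0.25, so most of this group was no longer called. Groups drawn by words in the annotation gave differing shares at 28 h. Of 8 members with plastid or chloroplast in the product or name, 8 were higher in each mutant. Of 6 pentatricopeptide repeat proteins, 1, 4 and 4 were higher in hsfa2 hsfa3, hsfa2 and hsfa3. Of 15 members with an EMB name, 7, 11 and 13 were higher in the same order.

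CP29, a chloroplast RNA-binding protein, had the highest mean CPM (not per length) at 28 h of all members in Col-0. It was at 1017, 994 and 1098 CPM in NTC, 456, 523 and 504 at 4 h, 2422, 2086 and 1849 at 28 h, then 1355, 1153 and 1267 at 52 h in Col-0. In hsfa2 hsfa3 the values were 903, 899 and 1095 in NTC, 569, 617 and 605 at 4 h, 1421, 1575 and 1529 at 28 h, then 1030, 1140 and 1045 at 52 h. The 28 h libraries were above all others of their genotype in both, and in Col-0 the rule required them to exceed NTC. The fitted log2 fold change at 28 h was 0.62 ± 0.10 in hsfa2 hsfa3, 0.99 ± 0.10 in hsfa2 and 0.85 ± 0.10 in hsfa3 (SE; edgeR adjusted p = 0.0001, 9.4e-08 and 1.2e-06).

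CPN60B, a beta subunit of the chloroplast chaperonin, had 745, 1123 and 778 CPM at 28 h in hsfa2 hsfa3, against 563, 708 and 755 in its NTC libraries, and the groups overlapped. Its adjusted p (edgeR) at 28 h was 0.11 there, 0.011 in hsfa2 and 0.0074 in hsfa3. PTAC12, a component of the plastid RNA polymerase complex also known as HEMERA, was at 211, 172 and 155 CPM at 28 h in Col-0, against 69.4, 77.9 and 69.0 in NTC. In hsfa3 it was at 176, 146 and 129 CPM at 28 h, against 72.1, 88.4 and 79.5 in NTC. PTAC12 rose at 28 h by a log2 of 0.65 ± 0.15 in hsfa2 hsfa3, 0.77 ± 0.15 in hsfa2 and 0.88 ± 0.15 in hsfa3. Its 28 h and NTC libraries did not overlap in any mutant, and in Col-0 the rule fixed this.

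FLN2, a fructokinase-like protein of the same polymerase complex, and FTSH12, a chloroplast FtsH protease, also rose at 28 h in all 3 mutants, by 0.45 to 0.69 and by 0.75 to 0.85 on the log2 scale. FLN2 was back to 63.6, 74.4 and 72.1 CPM at 52 h in hsfa2 hsfa3, within its NTC range of 61.5 to 73.4 but for the library at 74.4. The plastid elongation factor emb2726 reached 1281, 850 and 825 CPM at 28 h in Col-0, against 560, 532 and 480 in NTC. Its rise was called in hsfa2 (0.44 ± 0.13) and hsfa3 (0.57 ± 0.13) and had an edgeR adjusted p of 0.21 in hsfa2 hsfa3. ALB1, the D subunit of magnesium chelatase in chlorophyll synthesis, rose by 0.44 ± 0.10, 0.47 ± 0.10 and 0.58 ± 0.10. The chlorophyll synthesis list of 16 genes, of which ALB1 was the only member, had 4 higher and 4 lower genes at 28 h in hsfa2 hsfa3, 4 and 2 in hsfa2, and 4 and 4 in hsfa3.

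EMB2729, annotated as an alpha amylase family protein, had one of the highest 28 h values in Col-0 (L of 1.5). Its 28 h libraries were at 39.5, 63.5 and 43.2 CPM in hsfa2 hsfa3, against 21.5, 24.3 and 25.9 in NTC, and it was at 21.6, 33.4 and 31.1 CPM at 52 h. The rise at 28 h was called in all 3 mutants (1.00 to 1.11 on the log2 scale) and that at 52 h in none of them.

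The replication and division group had 18 members and differed from the plastid group in its counts at 28 h. At 4 h, 18 of 18 were lower than NTC in each mutant, with medians of -1.21 in hsfa2 hsfa3, -1.34 in hsfa2 and -1.32 in hsfa3. At 28 h, 5 were higher in hsfa2 hsfa3, 0 in hsfa2 and 3 in hsfa3, beside 10.6%, 10.4% and 12% of all genes tested. The medians at 28 h were 0.22, 0.07 and 0.23. At 52 h, 6, 0 and 1 were higher, beside 5.96%, 6.45% and 4.78% of all genes tested. In Col-0 the median L of the group was -1.16 at 4 h, 0.67 at 28 h and 0.46 at 52 h, the first 2 fixed by the rule.

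MCM6 was at 13.4, 14.1 and 11.8 CPM in NTC, 3.94, 4.62 and 5.25 at 4 h, 21.1, 22.7 and 23.3 at 28 h, then 17.2, 17.8 and 20.8 at 52 h in Col-0. In hsfa2 it was at 14.5, 14 and 15.9 CPM in NTC, 3.93, 4.65 and 5.65 at 4 h, 16.4, 18 and 17.0 at 28 h, then 14.9, 18 and 19.1 at 52 h. The 28 h libraries lay above the NTC libraries in both, in Col-0 by the rule. The step was smaller in hsfa2, but MCM6 was chosen on the Col-0 libraries, so this difference carries no test. Its log2 fold change at 28 h was 0.33 ± 0.11 in hsfa2 hsfa3, 0.23 ± 0.11 in hsfa2 and 0.32 ± 0.11 in hsfa3 (SE; edgeR adjusted p = 0.038, 0.16 and 0.041).

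RNR1, the large subunit of ribonucleotide reductase, was called higher at 28 h in hsfa2 hsfa3 (0.32 ± 0.11) and hsfa3 (0.33 ± 0.11) and had an adjusted p (edgeR) of 0.067 in hsfa2. MCM2 had 0.28 ± 0.12 in hsfa2 hsfa3, 0.19 ± 0.12 in hsfa2 and 0.33 ± 0.12 in hsfa3, and only the last was called (edgeR adjusted p = 0.0499). MCM3, another helicase subunit and one of the members at the edge of the rule, had values of 0.23, 0.09 and 0.22 and was not called. ICU2 was called in hsfa2 hsfa3 only (0.36 ± 0.11). The DNA replication list of 36 genes held 5 members (MCM2, MCM3, MCM6, RNR1 and CDT1B, the last a licensing factor). Of those 36, 20 were lower and 5 higher at 4 h in hsfa2 hsfa3, 21 and 5 in hsfa2 and 23 and 2 in hsfa3. At 28 h 6, 2 and 5 were higher and 0, 0 and 1 lower, beside 10.6%, 10.4% and 12% higher of all genes tested.

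The members with the lowest mean fold change at 28 h over the mutants were AT1G17960 (a threonyl-tRNA synthetase), WYR (an inner centromere protein), 3xHMG-box1 (a chromatin protein), the kinesins POK2 and AT2G22610, and AT5G60930. POK2, which guides the phragmoplast at division, was at 9.67, 12.9 and 7.50 CPM at 28 h in hsfa2 hsfa3, against 10.7, 9.40 and 8.88 in NTC. In Col-0 it was at 16.7, 11.2 and 17.3 CPM at 28 h, against 9.36, 10.8 and 5.54 in NTC. WYR was at 7.81, 7.42 and 6.69 CPM at 28 h in hsfa2, all below its NTC libraries at 11.2, 9.70 and 9.32, with a log2 fold change of -0.44 ± 0.20 and an adjusted p (edgeR) of 0.13. None of the 6 was called in any mutant at 28 h. Mitotic cyclins and CDKB kinases, a list of 24 genes with 0 members, summed to 152 to 217.6 CPM at 28 h in hsfa2 hsfa3 and 161.8 to 232.8 in Col-0, against 174.9 to 202.6 and 167.5 to 206.4 in the NTC libraries of the same genotypes.

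**Figure D3:**
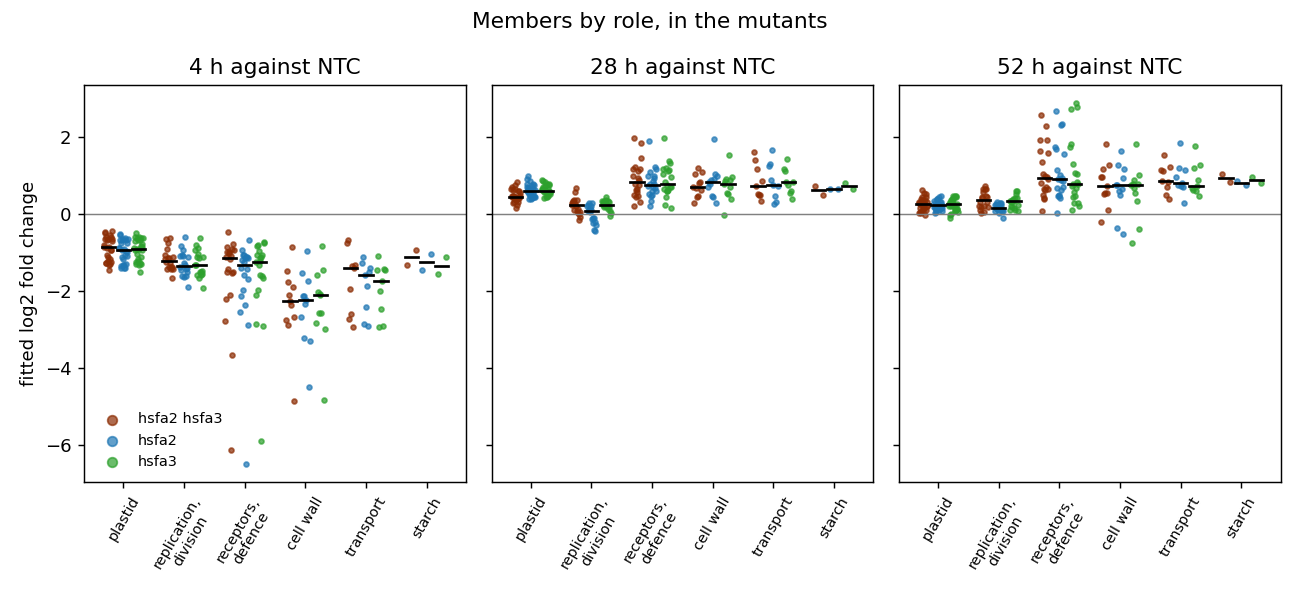
Fitted log2 fold change against NTC at 4, 28 and 52 h for the members of 6 role groups (points) and the group median (black lines), in hsfa2 hsfa3, hsfa2 and hsfa3. At 28 h the plastid medians are 0.45 to 0.61 and the replication and division medians 0.07 to 0.23, and at 52 h receptors and defence have the widest range, up to 2.88.

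The receptor and defence group had 20 members, and at 52 h more of them were called than of the plastid or the replication group. At 4 h, 18 were lower in each mutant. At 28 h, 14 were higher in hsfa2 hsfa3, 13 in hsfa2 and 18 in hsfa3, and at 52 h 14, 13 and 14. The medians were 0.83, 0.74 and 0.78 at 28 h, then 0.94, 0.90 and 0.78 at 52 h. In Col-0 the median L at 52 h was 0.82, against 0.50 over all members.

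EP1, a receptor-like protein kinase-related protein, was first among the 8 members named for a large rise common to the 3 mutants at 28 h. It was at 1.37, 2.28 and 2.18 CPM in NTC, 1.04, 0.563 and 0.748 at 4 h, 8.98, 7.52 and 6.81 at 28 h, then 14.8, 8.62 and 11.2 at 52 h in hsfa2 hsfa3. In Col-0 it was at 1.73, 2.17 and 2.29 CPM in NTC, 0.716, 0.593 and 0.656 at 4 h, 8.78, 5.98 and 7.60 at 28 h, then 13.6, 10.8 and 10.1 at 52 h. None of the 3 heated groups overlapped with NTC in either genotype, which for Col-0 at 28 h was a condition of the rule. Its log2 fold change was 1.97 ± 0.32, 1.90 ± 0.32 and 1.97 ± 0.32 at 28 h in hsfa2 hsfa3, hsfa2 and hsfa3 (edgeR adjusted p = 9.1e-05, 0.00012 and 8.4e-05) and 2.57, 2.66 and 2.73 at 52 h.

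WAK2, a wall-associated kinase that binds pectin, was at 11.7, 10.6 and 7.44 CPM at 28 h, then 16.0, 16.3 and 13.4 at 52 h in hsfa2 hsfa3, against 7.22, 3.78 and 3.72 in NTC. It rose by 0.99 ± 0.30 at 28 h and by 1.63 ± 0.30 at 52 h there. WRKY60, a transcription factor of the salicylic acid and defence list and its only member, was at 12.8, 11.8 and 10.6 CPM at 28 h in hsfa2 hsfa3, against 4.18, 6.56 and 5.23 in NTC, and rose by 1.11 ± 0.18, 0.86 ± 0.18 and 1.11 ± 0.18 in the 3 mutants. That list of 82 genes (69 tested) had 11 higher and 8 lower genes at 28 h in hsfa2 hsfa3, 9 and 5 in hsfa2 and 11 and 7 in hsfa3. Of all genes tested, 10.6%, 10.4% and 12% were higher and 9.99%, 7.87% and 10.9% lower at 28 h in the same mutants.

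ACD6, an ankyrin protein that promotes salicylic acid signalling, had no more than 0.0598 CPM in any mutant library at 4 h, at or under the floor of 3 counts, so no fold is given for that time. It was at 19.3, 11.8 and 18.7 CPM at 52 h in hsfa2 hsfa3, against 4.66, 2.87 and 2.72 in NTC, and rose at 52 h by 2.28 ± 0.36, 2.31 ± 0.37 and 2.88 ± 0.37 in hsfa2 hsfa3, hsfa2 and hsfa3. At 28 h it was called in hsfa3 only (1.37 ± 0.36). AZI1 and EARLI1, neighbouring lipid transfer protein genes of systemic immunity with similar sequences, had among the highest 28 h values in Col-0 (L of 1.89 and 1.72) and varied widely between replicates. EARLI1 was at 6.49, 58.4 and 13.4 CPM in the NTC libraries of hsfa2, and neither gene was called at any time in any mutant, the nearest being AZI1 at 28 h in hsfa2 hsfa3 (edgeR adjusted p = 0.0504). Counts of AZI1 and EARLI1, and of the purine permease PUP7 and its neighbour AT4G18205, may be less certain where the copies share sequence.

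Members for cell wall and other carbohydrate-active enzymes had the lowest medians at 4 h of the 6 groups. The 11 genes of the group had medians at 4 h of -2.25 in hsfa2 hsfa3, -2.22 in hsfa2 and -2.11 in hsfa3, and 11 of 11 were called in each. At 28 h 8, 9 and 9 were higher, with medians of 0.71, 0.83 and 0.77, and at 52 h 8, 9 and 7. The group was put together with the values known and left out the beta-glucosidase BGLU28. Of the 8 members annotated as glycosidases, BGLU28 included, 7 were lower at 4 h in each mutant. At 28 h 5, 6 and 6 of those 8 were higher in hsfa2 hsfa3, hsfa2 and hsfa3. MUM2, a beta-galactosidase that trims pectin, had the lowest 4 h value of all members in Col-0. It was at 42.3, 40.3 and 35.7 CPM in NTC, 6.54, 5.04 and 4.25 at 4 h, 92.0, 62.0 and 61.4 at 28 h, then 77.6, 69.2 and 66.9 at 52 h in Col-0. No heated group overlapped with NTC there, which at 28 h the rule required. In hsfa2 hsfa3 it was at 48.9, 36.7 and 36.8 CPM in NTC, 6.94, 4.95 and 3.86 at 4 h, 80.3, 59.4 and 63.7 at 28 h, then 98.7, 63.8 and 74.0 at 52 h. Its log2 fold change at 4 h was -2.75 ± 0.26, -2.67 ± 0.26 and -2.83 ± 0.26 in hsfa2 hsfa3, hsfa2 and hsfa3, and at 28 h 0.71, 0.70 and 0.77.

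BGLU44, a beta-glucosidase, showed the same course at a higher CPM. It was at 571, 590 and 549 CPM at 28 h in hsfa2 hsfa3, against 265, 253 and 306 in NTC, after 78.7, 65.0 and 68.4 at 4 h. It rose at 28 h by 1.03 ± 0.10, 0.78 ± 0.10 and 0.85 ± 0.10 (edgeR adjusted p = 9.7e-08, 5.5e-06 and 1.5e-06). AT5G13980, a glycosyl hydrolase of family 38, and SCPL13, a serine carboxypeptidase-like protein outside the groups, were also among the 6 lowest at 4 h in Col-0 (L of -2.41 and -2.57), with PUP7, ACD6 and LOL1. EXLB1, an expansin-like protein, was the only member among 38 expansin genes and rose at 28 h in all 3 mutants (0.83 to 1.04). Of the 25 expansin genes tested, 16, 15 and 15 were lower at 4 h in hsfa2 hsfa3, hsfa2 and hsfa3 and at 28 h 2, 2 and 2 were higher and 3, 4 and 3 lower.

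The membrane transport group had 9 members, of which 9 were lower at 4 h in each mutant and 7, 7 and 9 were higher at 28 h in hsfa2 hsfa3, hsfa2 and hsfa3. At 52 h 8 were higher in each. PTR3, a peptide transporter, was at 6.37, 6.48 and 6.34 CPM at 28 h in hsfa2 hsfa3, against 2.06, 2.48 and 1.63 in NTC, a log2 rise of 1.61 ± 0.26. AT4G18205 had 11.9, 12.4 and 14.2 CPM at 28 h, then 16.5, 14.7 and 17.7 at 52 h in hsfa2 hsfa3, against 5.61, 6.15 and 5.02 in NTC, and its 4 h libraries held 1.08 to 1.45 CPM. PMT6, a polyol or sugar transporter of the major facilitator family, rose at 28 h by 1.41 ± 0.18, 1.29 ± 0.18 and 1.11 ± 0.18.

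SEX1 and PWD, the 2 dikinases that phosphorylate starch and so allow its breakdown, moved together. SEX1 was at 339, 267 and 275 CPM in NTC, 103, 101 and 104 at 4 h, 561, 490 and 440 at 28 h, then 765, 445 and 607 at 52 h in hsfa2 hsfa3. In Col-0 it was at 350, 290 and 267 CPM in NTC, 101, 79.7 and 83.8 at 4 h, 557, 451 and 531 at 28 h, then 670, 614 and 653 at 52 h. All heated groups were apart from NTC in both genotypes, at 28 h in Col-0 by the rule. SEX1 rose at 28 h by 0.73 ± 0.22, 0.64 ± 0.22 and 0.80 ± 0.22, and PWD by 0.50 ± 0.12, 0.64 ± 0.12 and 0.65 ± 0.12, in hsfa2 hsfa3, hsfa2 and hsfa3.

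**Figure D4:**
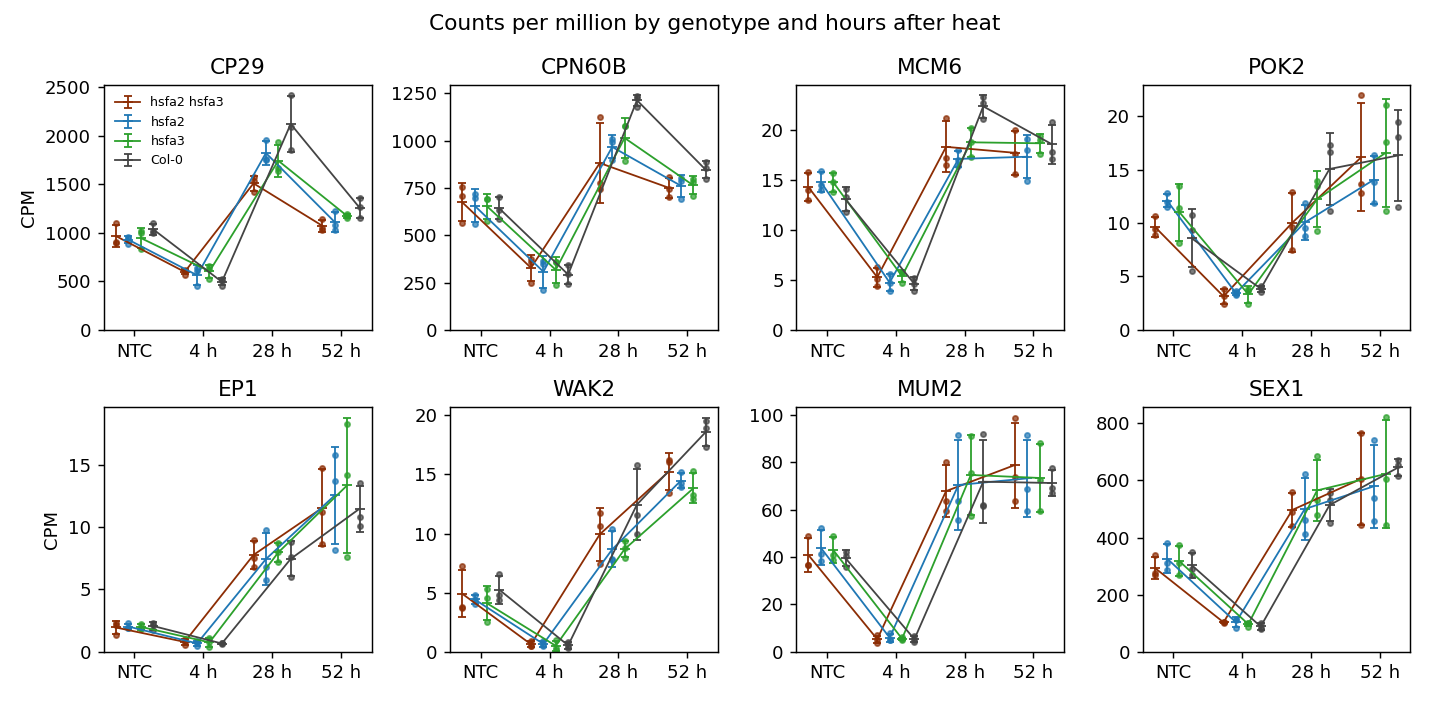
CPM of 8 members in every library (points), with group means and SD (bars, n = 3), for hsfa2 hsfa3, hsfa2, hsfa3 and Col-0 in NTC and at 4, 28 and 52 h. CP29 and CPN60B peak at 28 h, EP1 and WAK2 are highest at 52 h, and POK2 in hsfa2 hsfa3 at 28 h (7.50 to 12.9 CPM) spans its NTC values (8.88 to 10.7 CPM).

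Outside the groups, the subtilase AT4G21650 and the glycine-rich protein GRP9 had the largest 28 h values in Col-0 (L of 2.53 and 2.48). GRP9 was at 583, 280 and 262 CPM at 28 h in Col-0, against 69.8, 58.5 and 71.0 in NTC. It rose at 28 h by 1.64 ± 0.34, 1.73 ± 0.34 and 2.08 ± 0.34 in hsfa2 hsfa3, hsfa2 and hsfa3 and was still higher at 52 h (1.73, 1.52 and 2.39). AT4G21650 was at 54.4, 31.0 and 29.0 CPM at 28 h in Col-0, against 7.01, 4.29 and 6.02 in NTC, and was called at 28 h in hsfa3 only (1.95 ± 0.52). Also among the 10 largest were AT2G06950, the non-coding AT2G15128, the methyltransferase AT1G15125 and the beta-glucosidase BGLU28. BGLU28 rested on 1 library in each mutant at 28 h, with 17.6, 1.07 and 2.59 CPM in hsfa2 hsfa3, against 4.78, 2.37 and 1.69 in NTC, and was not called at any time.

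Others of the 8 named for a large rise common to the mutants included AT1G15125 (1.38 to 1.83 at 28 h). The tetratricopeptide repeat protein AT3G24000 (1.21 to 1.36) and AT2G33830, a dormancy and auxin associated protein (1.21 to 1.42), were also among them. HOL2 and AT1G75960, not among the 8, rose at 28 h in the 3 mutants as well. In a fit with the replicate number as a block, HOL2 rose by 1.586 to 1.996 and AT1G75960 by 1.425 to 1.588. AT2G33830 was at 794, 437 and 812 CPM at 28 h in hsfa2 hsfa3, against 253, 263 and 235 in NTC. LTP2, a lipid transfer protein, and AT1G01320, a tetratricopeptide repeat protein, were among the 8 members with the highest CPM at 28 h in Col-0, and neither was called at 28 h in a mutant. LTP2 was at 339, 1390 and 796 CPM at 28 h in hsfa3, against 374, 1330 and 660 in NTC. LACS1 makes precursors of cuticular wax and was with LTP2 in the cuticle, wax and lipid transfer list of 67 genes. It rose at 28 h in hsfa2 (0.32 ± 0.11) and hsfa3 (0.41 ± 0.11) and at 52 h in all 3 mutants (0.49, 0.55 and 0.60). More genes of that list fell than rose at 28 h. Of its 62 genes tested, 3 were higher and 18 lower in hsfa2 hsfa3, 6 and 15 in hsfa2, and 5 and 20 in hsfa3.

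PRR3, a pseudo-response regulator, was the only member among 22 clock genes. It was at 46.2, 48.6 and 34.3 CPM at 28 h in hsfa2 hsfa3, against 34.9, 33.9 and 39.7 in NTC, and was called at 28 h in hsfa3 only (0.62 ± 0.12) and at 52 h in all 3 mutants. Of the clock genes, 12, 11 and 11 were higher and 5, 5 and 7 lower at 4 h in hsfa2 hsfa3, hsfa2 and hsfa3, and 8, 8 and 9 were higher and 2, 3 and 3 lower at 28 h. In all, 23 gene lists were compared with the set, and 12 members were in 7 of them, while the other 16 lists, among them histones, aquaporins, small heat shock proteins and HSP70, HSP90 and HSP101 genes, and ribosomal proteins, held no member. Aquaporins, also lowered at 4 h (24, 22 and 23 of 29 genes tested in hsfa2 hsfa3, hsfa2 and hsfa3), had 0, 1 and 0 higher and 13, 11 and 14 lower genes at 28 h. Cellulose synthases, with 25, 26 and 25 of 38 lower at 4 h, had 0, 2 and 1 higher and 15, 13 and 16 lower at 28 h.

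Of the members, 67 (32.4%) overlap another annotated gene, against 24.4% of the 32835 genes found in the annotation, and FTSH12, CPN60B, PTAC12, ICU2, POK2, WAK2 and EMB2729 are among them. Strand use in the counting is not given in the sources used here, so reads from both genes of such a pair may not be separable. Over the 140 members that overlap no other gene, 52.1%, 57.1% and 70.0% were higher at 28 h in hsfa2 hsfa3, hsfa2 and hsfa3.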

How the data were processed

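The deposited files hold, per the authors' methods, whole-number read counts per gene, made by mapping paired-end reads to TAIR10 with STAR 2.5.1a and its gene counting option. The 4 summary lines of each file were left out (7.20% to 9.38% of the total). No count was altered. CPM used the sum of gene counts. Of 33323 gene IDs, 32835 matched the RefSeq TAIR10.1 gene table, which gave symbols. All genes were kept, not protein-coding ones alone as in the study's methods.

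The members and the gene lists were chosen with earlier results of these data known. To keep tests apart from the choice, the 9 Col-0 libraries behind the rule (NTC, 4 h, 28 h) were left out of the fit: edgeR 4.0.16 (R 4.3.3) quasi-likelihood test, TMM scaling, filterByExpr, 13 groups, 39 libraries, 26 residual degrees of freedom. DESeq2 1.42.0 was an alternative. The scripts were tested on simulated data. SE is the absolute log2 fold change over the root of F.

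Named members were those with the 10 largest 28 h and 6 lowest 4 h values in Col-0, the 8 with the highest 28 h CPM, 8 with a large rise common to the 3 mutants, the 6 with the lowest mean rise, list members and those at the thresholds. No member qualified by a difference between mutants or from Col-0 at 52 h. PTAC12, FLN2, FTSH12, ICU2, WAK2, PWD, CDT1B, HOL2, AT1G75960 and the other members with the E2F-type motif were added after their values were seen. The scatter between pairs of replicate libraries exceeded counting noise in all 48 pairs tested, so none was counted as a duplicate. Alternatives were other scaling, filters, tests, thresholds and left-out replicates.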

Additional observations from a re-analysis of the deposited data

How the results depend on the processing

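The counts for the 3 recovery times stayed within 1.5 times of their values with DESeq2, its size factors, no filter, a stricter filter, protein-coding genes only and all 48 libraries, and the 6 counts of 0 stayed 0 under every alternative. An absolute log2 fold change above 1 left 120 members lower at 4 h in hsfa2 hsfa3 and 127 in hsfa3, 27, 25 and 27 higher at 28 h in hsfa2 hsfa3, hsfa2 and hsfa3, 20, 20 and 22 with both calls and 27, 24 and 23 higher at 52 h, by its construction. Leaving out 1 replicate number gave 171 to 194, 184 to 198 and 179 to 198 members lower at 4 h in hsfa2 hsfa3, hsfa2 and hsfa3, 36 to 109, 44 to 95 and 58 to 115 higher at 28 h, 28 to 104, 42 to 91 and 52 to 115 with both calls and 14 to 62, 11 to 60 and 12 to 53 higher at 52 h. The lowest values were those without replicate 3, and fewer samples are one part of that. The rest of the cause was not tested.

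The number of members was 23 with thresholds of -1 and 1, 632 with -0.6 and 0.4, 82 with a pseudocount of 5, 99 on TMM-scaled CPM and 221 to 269 without 1 replicate number. Over the 99, an alternative chosen after seeing the data, 57.6%, 61.6% and 70.7% were higher at 28 h in hsfa2 hsfa3, hsfa2 and hsfa3. Replicate numbers are not said to mark a shared batch. Same-numbered libraries deviated together in 29 of 36 pairs (correlation above 0.1, range -0.02 to 0.59), short of every pair. The mean was 0.29 for the same number and -0.14 for other numbers. The second value is largely set by centring each group on its own mean and is no separate reference. With the replicate number as a block, 102 members were higher at 52 h in hsfa3, and the other counts stayed within 1.5 times. Several members named above gained a call with the block that the main fit did not give (edgeR adjusted p). At 28 h these were AT4G21650 (0.00013 in hsfa2 hsfa3, 1.7e-05 in hsfa2), ACD6 (0.002, 0.0027), AZI1 (0.0024, 0.0055 and 0.012 in hsfa2 hsfa3, hsfa2 and hsfa3), EARLI1 (0.021) and CPN60B (0.031) in hsfa2 hsfa3, RNR1 (0.043) and SCPL13 (0.0022) in hsfa2 and AT1G01320 (0.024) in hsfa3. AZI1 was also called at 4 h in hsfa2 hsfa3 (0.048) and hsfa2 (0.0061), and EARLI1 at 52 h in hsfa2 (0.036). ALB1, CP29, FTSH12, ICU2, MCM2, MCM6, emb2726, EXLB1, PTR3, SCPL13, AT1G01320, AT2G15128 and AT4G21650 gained a call at 52 h in at least 1 mutant. At this depth 3 counts are about 0.0895 CPM, which limits only the lowest members at 4 h. The p-values set a difference between groups against the spread between the replicates in these samples.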
